A study of Mus musculus with 20 samples.

Results

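H3K27ac, an acetylated histone mark of active promoters and enhancers, was followed at 5 genes of 2 families, sine oculis-related (Six2 and Six4) and eyes absent (Eya1, Eya2 and Eya4), in the developing mouse face. The 5 genes were listed by name. A peak counted for a gene if it touched the gene body, or if, among protein-coding start sites up to 100 kb away, that of the gene was the closest. Of 144852 peaks in 10 libraries, 108 were assigned to these genes, 20 to Six2, 9 to Six4, 24 to Eya1, 36 to Eya2 and 19 to Eya4, and none of them to more than 1 of the 5. Overlapping peaks of all libraries merged into 42346 regions, of which 38 were those of the 5 genes. All tissue came from wild-type mouse embryos and held the mixed cells of the dissected part. At e11.5 (stages are named by embryonic day) both jaw processes, mandibular and maxillary, were sampled together with the medial and lateral nasal plates, called medial and lateral plate here. At e13.5 and e15.5 a nose sample took the place of the plates. Each tissue had 1 library per stage and no treatment was given, so spread within a stage is spread between tissues, and no label ties a tissue to individual embryos.

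Six2, Six4 and their relatives are homeodomain transcription factors. Eya proteins are co-activators with a phosphatase domain that do not bind DNA themselves and are brought to their targets by these factors. Together with Pax and Dach factors they form a network used in sensory placodes, kidney, skeletal muscle and the skull. Six2 maintains progenitors of the kidney and is expressed in midfacial mesenchyme, and mutations of the human gene EYA1 cause branchio-oto-renal syndrome. EYA4 is a deafness gene.

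The libraries differed in the number of peaks, and this difference moved with the tissue. At e11.5 and e13.5 the 3 nasal libraries, from the plates and from the e13.5 nose, held 20492 to 25941 peaks, and the 4 libraries of the mandibular and maxillary process, called jaw libraries here, held 6571 to 10753. Peaks more than 1 kb from every annotated start site, called distal, made up 49.9% to 51.3% of the former and 16.8% to 35.4% of the latter. Sequencing depth is unknown, and acetylation too weak to be called is not seen in a peak list. The tissue named in the deposited peak names differed from the label in each e15.5 library. The library labelled mandibular process carried peak names of nose, that labelled maxillary process carried md, and that labelled nose carried mx. Genes of the distal jaw, Hand1, Hand2, Dlx3, Dlx5, Dlx6 and Gsc, had 11.9 and 10.2 peaks per 10000 peaks in the mandibular libraries of e11.5 and e13.5, against 1.52 to 5.01 in the other 5 libraries of these stages. Of the 6 genes 4 had a peak in each of these mandibular libraries and 1 to 5 in the other libraries. Dlx3 had none in a jaw library of e11.5 or e13.5. At e15.5 they had 1.51 in the library labelled mandibular process, 4.83 in that labelled maxillary process and 1.29 in that labelled nose. The e15.5 libraries were therefore named by their labels, used as a set in comparisons of stage, and kept out of the comparison of nasal and jaw tissue.

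The sequences behind the main peaks are given first, from the mm10 (GRCm38) build, to show what lay under them. For Six2, Six4 and Eya4 these are promoters listed by RefSeq, 250 bases before to 50 after a start, on the gene's strand. The table held an entry for 3 of the 5 genes, and for Six4 and Eya4 the first of 2 entries is shown. The Six2 promoter, chr17:85688205-85688504 on the minus strand, lay wholly under a peak in 1 library, the e13.5 nose. The Six4 promoter, chr12:73113196-73113495 on the minus strand, did so in 6 libraries, and that of Eya4, chr10:23349894-23350193 on the minus strand, in 7. The other windows are 300 bases on the plus strand at the centre of the stretch covered by the most libraries. The Eya1 window, chr1:14309106-14309405, lay in the one region found in all 10 libraries. The Eya2 start window, chr2:165595268-165595567, was under a peak in 6 libraries, and the Eya2 intron window, chr2:165741272-165741571, in 4. The windows headed Eya1 and Eya2 start region lie inside the gene, downstream of its outermost start at chr1:14310235 and chr2:165595032, and do not hold that start. The Six2 upstream window, chr17:85786163-85786462, was under a peak in 5. Capitals mark matches on either strand to 7 consensus sequences, TGATAC (the core bound by proteins such as Six2), TAATTA (a homeodomain core), CATCTG (an E-box), GCCNNNGGC (AP-2), TGANTCA (AP-1), GGAATG (TEAD) and TCAGGTTTC (MEF3, a site for proteins such as Six4 in muscle genes). No matches overlapped one another in the sequences shown.
Six2 promoter: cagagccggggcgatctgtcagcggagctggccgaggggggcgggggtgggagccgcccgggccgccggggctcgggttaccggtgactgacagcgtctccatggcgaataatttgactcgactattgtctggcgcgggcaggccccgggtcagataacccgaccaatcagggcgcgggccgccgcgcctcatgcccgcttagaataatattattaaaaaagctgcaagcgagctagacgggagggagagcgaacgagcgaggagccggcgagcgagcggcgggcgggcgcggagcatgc
Six2 upstream window: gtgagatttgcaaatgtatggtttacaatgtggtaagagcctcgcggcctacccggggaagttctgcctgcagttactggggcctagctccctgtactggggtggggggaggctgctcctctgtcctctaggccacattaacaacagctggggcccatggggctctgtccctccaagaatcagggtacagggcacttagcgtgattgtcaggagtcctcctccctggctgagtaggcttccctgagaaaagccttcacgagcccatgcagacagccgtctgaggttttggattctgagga
Six4 promoter: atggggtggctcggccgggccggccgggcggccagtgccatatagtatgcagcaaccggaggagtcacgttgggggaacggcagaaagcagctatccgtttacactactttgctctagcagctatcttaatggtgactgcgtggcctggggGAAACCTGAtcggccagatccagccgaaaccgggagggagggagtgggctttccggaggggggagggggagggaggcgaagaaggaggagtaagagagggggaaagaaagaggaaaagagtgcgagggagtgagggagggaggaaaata
Eya1 start region: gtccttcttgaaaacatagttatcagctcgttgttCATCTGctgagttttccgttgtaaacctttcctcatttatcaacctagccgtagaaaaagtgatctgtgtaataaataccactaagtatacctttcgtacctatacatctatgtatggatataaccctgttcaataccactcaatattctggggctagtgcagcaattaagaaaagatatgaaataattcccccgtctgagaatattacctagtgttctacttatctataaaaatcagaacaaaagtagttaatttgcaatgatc
Eya2 start region: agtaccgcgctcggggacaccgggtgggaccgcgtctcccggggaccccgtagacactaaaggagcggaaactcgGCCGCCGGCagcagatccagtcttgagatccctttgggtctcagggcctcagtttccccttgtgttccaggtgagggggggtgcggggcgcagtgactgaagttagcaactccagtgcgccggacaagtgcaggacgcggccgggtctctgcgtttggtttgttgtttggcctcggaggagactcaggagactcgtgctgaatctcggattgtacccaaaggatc
Eya2 intron window: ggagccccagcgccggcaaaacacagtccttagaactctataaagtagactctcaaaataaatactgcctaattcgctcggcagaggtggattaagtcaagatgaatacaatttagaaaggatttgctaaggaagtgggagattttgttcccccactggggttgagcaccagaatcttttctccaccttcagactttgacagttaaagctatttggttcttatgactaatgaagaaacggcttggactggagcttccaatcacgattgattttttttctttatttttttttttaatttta
Eya4 promoter: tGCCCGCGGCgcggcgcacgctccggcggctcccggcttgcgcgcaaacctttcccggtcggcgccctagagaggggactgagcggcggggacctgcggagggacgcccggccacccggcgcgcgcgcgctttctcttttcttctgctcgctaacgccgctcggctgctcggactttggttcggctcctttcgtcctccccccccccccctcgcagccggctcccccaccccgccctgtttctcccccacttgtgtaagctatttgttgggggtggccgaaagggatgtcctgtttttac

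Of the 7 sequences, 4 held a match. The Six4 promoter held the MEF3 sequence, at bases 152 to 160 on the opposite strand as GAAACCTGA, and 0.429% of 32851 listed promoters held one. The Eya1 start region held an E-box at bases 36 to 41, and the Eya2 start region and the Eya4 promoter each held an AP-2 sequence. The Six2 promoter, the Six2 upstream window and the Eya2 intron window held none of the 7. Over the central windows of all 38 regions, TGATAC was found in 2, or 5.26%, against 5.71% of all 42346 regions, and the E-box in 7, or 18.4%, against 22.0%. The AP-2 sequence was found in 5 windows (13.2% against 14.3% of all), AP-1 in 3 (7.89% against 7.94%), TEAD in 3 (7.89% against 17.1%), TAATTA in 1 (2.63% against 5.33%) and MEF3 in 0 (against 0.576%). These are matches of letters in one window per region and say nothing of binding.

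Six2, the nephron progenitor and midface factor, carried 1 wide domain over the gene and 4 regions upstream. The gene, ENSMUSG00000024134.11, lies at chr17:85684277-85688274 on the minus strand and is 3.998 kb long. It had 5 peaks in the medial plate and 5 in the lateral plate of e11.5, 1 each in the mandibular and maxillary process of that stage, and at e13.5 it had 0 in the mandibular process, 2 in the maxillary process and 3 in the nose. At e15.5 it had 3 in the library labelled mandibular process and 0 in both others. In number the nasal libraries were thus the high ones at e11.5 and e13.5, but per 10000 peaks of the library the e13.5 maxillary process, with 1.86, stood above the nose, with 1.16. In 3 libraries there was no Six2 peak at all.

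**Figure D1:**
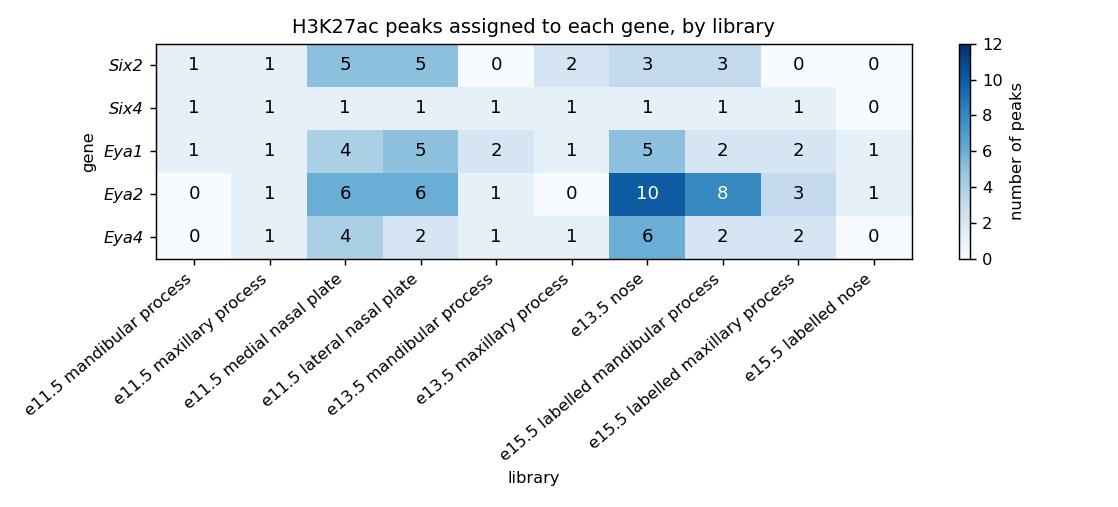
Number of H3K27ac peaks assigned to each of the 5 genes (rows) in each of the 10 libraries (columns), with the number in each cell. The medial and lateral plates, the e13.5 nose and the e15.5 library labelled mandibular process are the dark columns, while Six4 has 1 peak in 9 libraries and 0 in the last.

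The Six2 domain, chr17:85679008-85694875, covered the whole gene and was called in 5 libraries. Its peaks covered 14702 bp in the medial plate, 7654 bp in the lateral plate, 9676 bp in the e13.5 maxillary process, 15413 bp in the e13.5 nose and 15326 bp in the e15.5 library labelled mandibular process. The widest peak of the domain stood at the 96.4th to 99.9th percentile of peak width within its library. In 4 of the 5 libraries the domain was made of 2 peaks with the start site in the gap between them. The gap measured 343 bp in the medial plate, 621 bp in the lateral plate, 451 bp in the e13.5 maxillary process and 289 bp in the e15.5 library labelled mandibular process, and only in the e13.5 nose did a single peak run across the start. The promoter sequence shown above overlaps this gap in all 4.

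Of the 4 upstream regions of Six2, all intergenic, the outermost was the most often called. It lies at chr17:85784746-85788639, with its near edge 96.5 kb upstream of the start, close to the limit of the 100 kb rule. Its peaks measured 1470 bp in the e11.5 mandibular process, 2789 bp in the medial plate, 3026 bp in the lateral plate, 2714 bp in the e13.5 nose and 2906 bp in the e15.5 library labelled mandibular process. The e11.5 mandibular process thus had this region without the domain over the gene, and the e13.5 maxillary process had the domain without this region. A region 58.7 kb upstream, chr17:85746945-85750396, was called in the medial plate (3452 bp), the lateral plate (1017 bp) and the e13.5 nose (1407 bp) and in no other library. Another, 48.4 kb upstream, chr17:85736700-85738663, was called in both nasal plates only. The last, 28.5 kb upstream at chr17:85716729-85717682, was a peak of 954 bp in the e11.5 maxillary process alone.

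Six4, a factor that acts beside its relatives in muscle and sensory ganglia, had 1 region, chr12:73110309-73114687, at its start site. The gene, ENSMUSG00000034460.9, lies at chr12:73099609-73113456 on the minus strand. It had 1 peak in each of 9 libraries and 0 in the e15.5 library labelled nose. The peak measured 2552 bp in the mandibular process, 1842 bp in the maxillary process, 3691 bp in the medial plate and 2808 bp in the lateral plate of e11.5. At e13.5 it measured 1979 bp in the mandibular process, 2401 bp in the maxillary process and 3016 bp in the nose. At e15.5 it measured 3444 bp and 2230 bp in the libraries labelled mandibular and maxillary process. The peak lay mostly inside the gene, reaching 1781 to 3147 bp downstream of the start. In 3 libraries, the mandibular and maxillary process of e13.5 and the e15.5 library labelled maxillary process, its upstream edge stood at -158, -118 and -82 bp, counted from the start with upstream as positive, and so inside the gene.

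**Figure D2:**
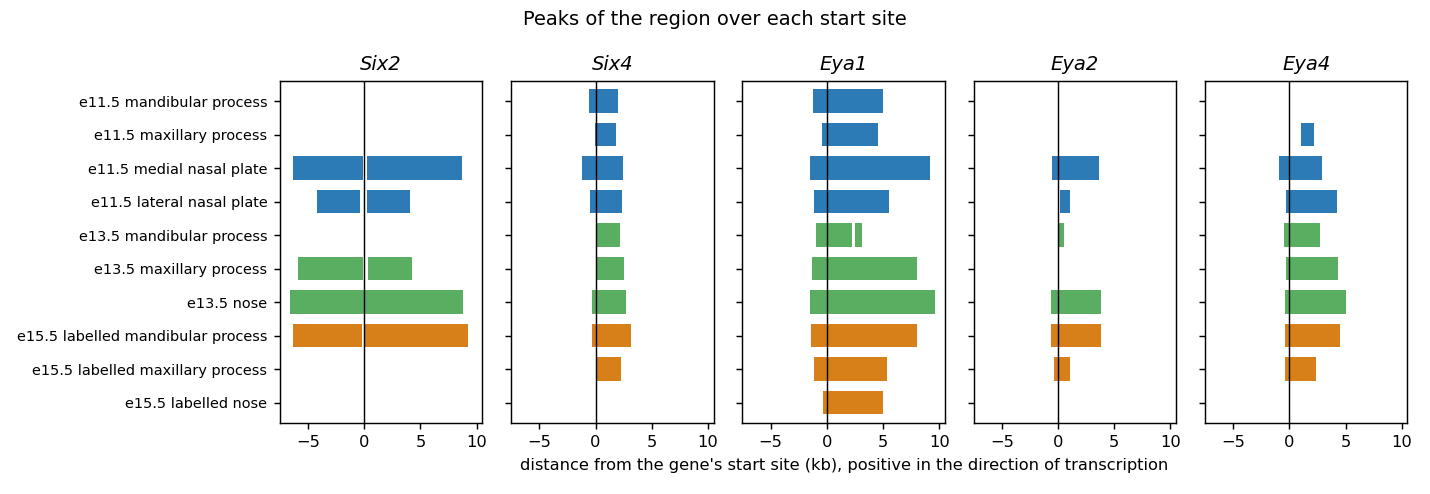
Peaks of the region over the start site of each gene, as bars from their first to their last base in kb from the start (vertical line), one row per library, coloured by stage. The Six2 bars leave a gap of 289 to 621 bp at the start in 4 of 5 libraries, and Eya1 has a bar in all 10 libraries.

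Eya1, the co-activator mutated in branchio-oto-renal syndrome, was the only one of the 5 with a peak in every library. The gene, ENSMUSG00000025932.14, lies at chr1:14168954-14310235 on the minus strand. It had 1 peak in the mandibular process, 1 in the maxillary process, 4 in the medial plate and 5 in the lateral plate of e11.5. It had 2 in the mandibular process, 1 in the maxillary process and 5 in the nose of e13.5, and 2, 2 and 1 in the e15.5 libraries labelled mandibular process, maxillary process and nose. The start region, chr1:14300628-14311719, was the single one of the 38 found in all 10 libraries, against 6.69% of all regions. Its widest peak measured 6188, 4945, 10637 and 6684 bp in the e11.5 mandibular process, maxillary process, medial plate and lateral plate. It measured 3225, 9382 and 11063 bp in the e13.5 mandibular process, maxillary process and nose, and 9418, 6527 and 5310 bp in the e15.5 libraries in the order of their labels above. The e13.5 mandibular process held the narrowest, at the 85.4th percentile of width within its library, and the other 9 stood at the 97.9th to 99.9th.

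The other 7 regions of Eya1 had no peak in any jaw library of e11.5 or e13.5. The widest of them, chr1:14183961-14188324, over an exon and introns 124 kb downstream of the start, was called in the medial plate (4364 bp), the lateral plate (3352 bp) and the e13.5 nose (2302 bp) only. The next, chr1:14160998-14163307, intergenic beyond the end of the gene, was called in the lateral plate (971 bp) and the e13.5 nose (2143 bp). An intergenic region 46.3 kb upstream, chr1:14356500-14358312, was called in the lateral plate (454 bp), the e13.5 nose (1813 bp) and the e15.5 library labelled maxillary process (613 bp).

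Eya2, a family member expressed in placodes and muscle, held the most peaks and the most regions of the 5. Nearly all its peaks were in nasal libraries and at e15.5, and these libraries together also held most of all peaks. The gene, ENSMUSG00000017897.18, lies at chr2:165595032-165771727 on the plus strand. It had 0 peaks in the mandibular process and 1 in the maxillary process of e11.5, and 6 in each nasal plate. At e13.5 it had 1 in the mandibular process, 0 in the maxillary process and 10 in the nose. The e15.5 libraries held 8, 3 and 1 in those labelled mandibular process, maxillary process and nose. Of the 36 peaks 26 were distal and 26 overlapped the gene body. The start region, chr2:165594396-165598888, was called in 6 libraries, with peaks of 4140 bp in the medial plate, 895 bp in the lateral plate, 486 bp in the e13.5 mandibular process, 4420 bp in the e13.5 nose, and 4480 and 1423 bp in the e15.5 libraries labelled mandibular and maxillary process.

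A pair of neighbouring intron regions stood far downstream in Eya2, 147 and 153 kb from the start. The first, chr2:165738750-165745408, measured 4144 bp in the medial plate, 2799 bp in the lateral plate, 6659 bp in the e13.5 nose and 3038 bp in the e15.5 library labelled mandibular process. The second, chr2:165745503-165749951, was called in the e13.5 nose (4231 bp) and in the e15.5 libraries labelled mandibular process (3964 bp) and maxillary process (983 bp), and in no e11.5 library. A further intron region, 6.18 kb from the start at chr2:165599160-165603271, measured 2397 and 3304 bp in the medial and lateral plate, 3721 bp in the e13.5 nose and 4112 bp in the e15.5 library labelled mandibular process. None of these 3 regions had a peak in a jaw library of e11.5 or e13.5.

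**Figure D3:**
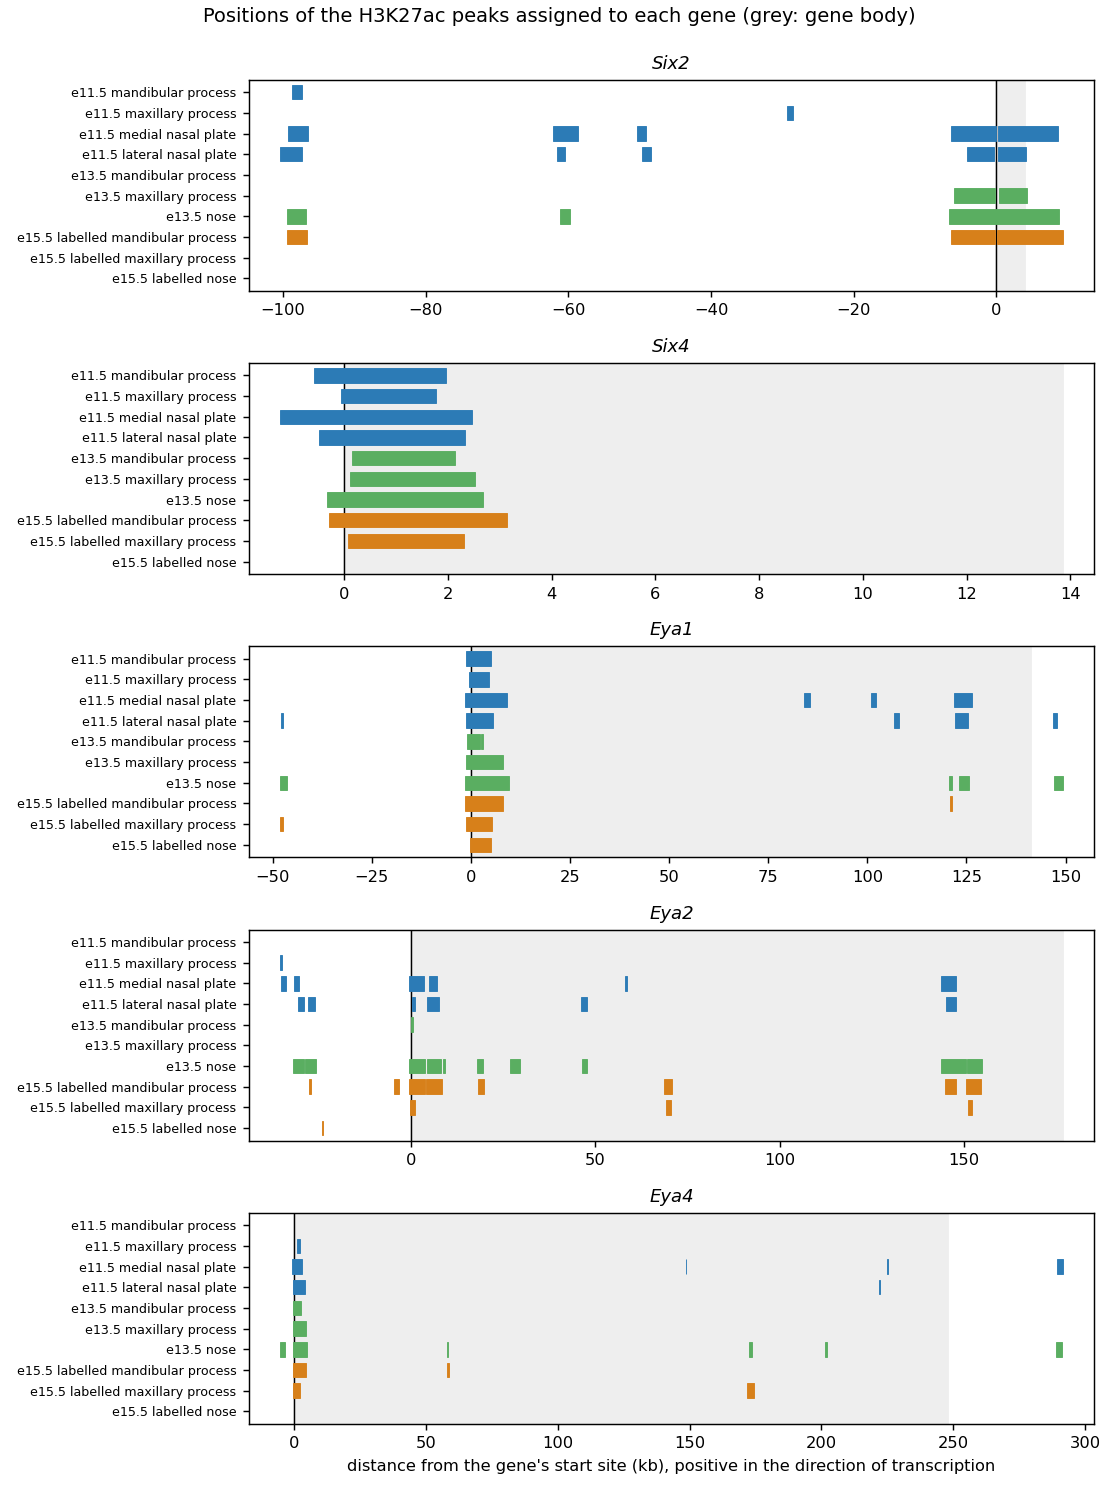
Positions of all 108 peaks, one panel per gene, in kb from the gene's start site (vertical line) in the direction of transcription, with the gene body in grey, one row per library and colour by stage. Jaw libraries of e11.5 and e13.5 hold bars mainly at start sites, and the bars along Eya1, Eya2 and Eya4 are mostly in the nasal libraries and in the e15.5 library labelled mandibular process.

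Eya4, the deafness gene of the family, had its start region in 8 libraries and small regions elsewhere. The gene, ENSMUSG00000010461.15, lies at chr10:23102963-23350786 on the minus strand. It had 0 peaks in the mandibular process, 1 in the maxillary process, 4 in the medial plate and 2 in the lateral plate of e11.5, then 1, 1 and 6 in the mandibular process, maxillary process and nose of e13.5. The e15.5 libraries held 2, 2 and 0. The start region, chr10:23345729-23351720, measured 1115 bp in the e11.5 maxillary process, 3865 bp in the medial plate and 4489 bp in the lateral plate. It measured 3194, 4642 and 5442 bp in the mandibular process, maxillary process and nose of e13.5, and 4928 and 2712 bp in the e15.5 libraries labelled mandibular and maxillary process. The 8 remaining regions had no peak in a jaw library of e11.5 or e13.5, and 5 of the 9 regions were called in 1 library. The widest of these 8, chr10:23176327-23179060, intronic, was called in the e13.5 nose (1192 bp) and the e15.5 library labelled maxillary process (2734 bp). An intergenic region beyond the gene's end, chr10:23059317-23061861, was called in the medial plate (2071 bp) and the e13.5 nose (2467 bp), and one 3.31 kb upstream of the start, chr10:23354095-23356080, in the e13.5 nose alone (1986 bp).

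Nasal and jaw tissue of e11.5 and e13.5 were then compared by the peaks of a gene per 10000 peaks of the library. This share is scaled to the size of each list but does not remove its effect. A gene with 1 peak in every library has a lower share in a longer list. Eya2 was the one gene of the 5 with every nasal library above every jaw library on this scale. It had 2.93 in the medial plate, 2.77 in the lateral plate and 3.85 in the nose, against 0 in the mandibular and 1.52 in the maxillary process of e11.5 and 1.45 in the mandibular and 0 in the maxillary process of e13.5. The means were 3.18 ± 0.587 (SD, n = 3) and 0.743 ± 0.859 (SD, n = 4), and of 9120 genes with at least 5 peaks in these libraries 6.18% had all nasal above all jaw libraries. The exact two-sided permutation test gave p = 0.0286, the smallest value that 35 assignments allow, and an adjusted p of 0.131 over all 9120 genes. Eya2 had 0 or 1 peak in each jaw library and so reached the minimum of 5 peaks through the nasal libraries. Its order and p are therefore not taken as support for a difference. The smallest adjusted p of any gene was 0.131, so 0 of the 5 and 0 of all genes (0%) passed an adjusted p of 0.05, while 2 of the 5, Eya2 and Six4, and 21.8% of all genes reached an unadjusted p of 0.05 or less.

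The acetylated length of Eya2, the bases under its peaks per Mb under all peaks of the library, gave the same order. It was 385 in the medial plate, 363 in the lateral plate and 631 in the nose, against 0, 34.96, 34.2 and 0 in the jaw libraries, with means of 460 ± 149 (SD, n = 3) and 17.3 ± 19.98 (SD, n = 4). The exact permutation p was again 0.0286 and the adjusted p 0.169, and 9.36% of genes had all nasal above all jaw libraries on this scale (25% had the reverse order). The limit from the minimum of peaks holds for Eya2 in length too. Of all genes 16.9% reached an unadjusted p of 0.05 or less in length, and of the 5 only Eya2 did. The excess was not among the peaks of highest rank. When 6571 peaks, the size of the smallest list, were taken from every library by q-value, Eya2 kept 1 peak in the 3 nasal and 2 in the 4 jaw libraries, too few for the test. With a q-value of 0.01 or less it kept 10 in the nasal and 0 in the jaw libraries. These are plain numbers from nasal lists that are longer than the jaw lists. With 0 jaw peaks no jaw library could stand above a nasal one. The share of all genes with such numbers is not given here.

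Six4 showed the reverse order, 0.385 to 0.488 peaks per 10000 in the nasal and 0.930 to 1.52 in the jaw libraries (exact permutation p = 0.0286, adjusted p = 0.131), as did 25.8% of all genes. With 1 peak in each of these 7 libraries its number did not differ, and its share follows the size of the list. Over all genes tested the median difference, nasal minus jaw, was -0.249. With the same number of peaks from each library the Six4 difference was 0.380, since the e13.5 maxillary process lost its peak. Six2 had means of 1.97 ± 0.705 (SD, n = 3) and 1.14 ± 0.810 (SD, n = 4), Eya1 of 2.06 ± 0.211 and 1.64 ± 0.879, and Eya4 of 1.73 ± 0.722 and 0.976 ± 0.702. Values of nasal and jaw libraries overlapped for these 3 genes, with exact permutation p-values of 0.257, 0.457 and 0.286. Among distal peaks alone Eya4 had every nasal above every jaw library, as had 18.3% of genes, with 0 in all 4 jaw libraries. Its difference was 2.54 per 10000 distal peaks (exact permutation p = 0.0286, adjusted p = 0.124). Eya4 thus reached the minimum of 5 distal peaks through the nasal libraries alone. No jaw library could then stand above a nasal one, so this order and p are no support for a difference. Eya2 overlapped in distal peaks, with a difference of 3.36 (exact permutation p = 0.114). In plain numbers of peaks, not scaled to the library, Six2, Eya1, Eya2 and Eya4 each had more in every nasal than in every jaw library, which held for 22.2% of genes.

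**Figure D4:**
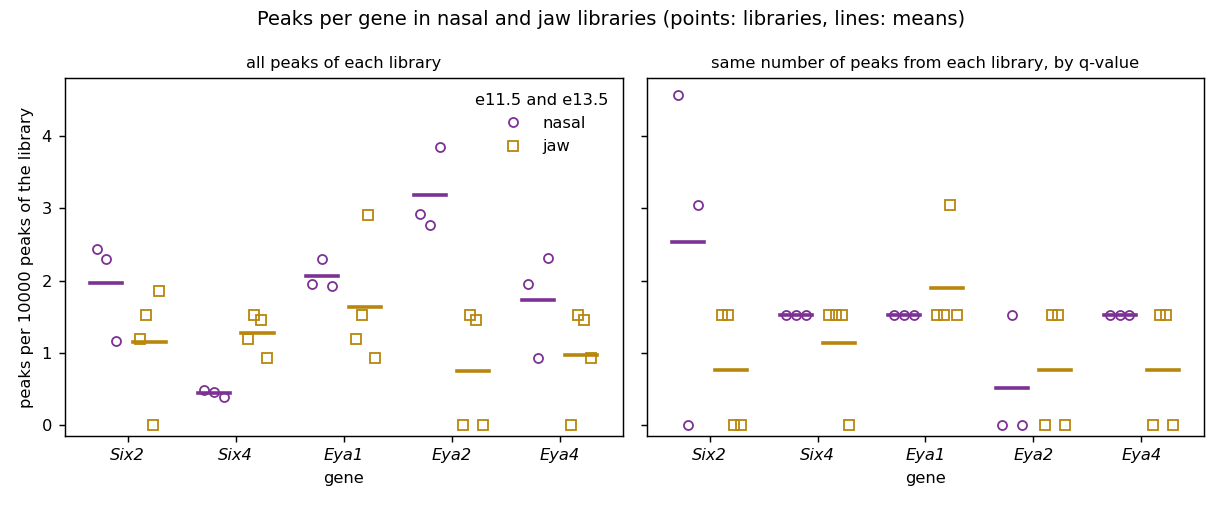
Peaks per 10000 peaks of the library for each gene in the 3 nasal (circles) and 4 jaw (squares) libraries of e11.5 and e13.5, with lines at the means, for all peaks (left) and for the 6571 peaks of each library with the smallest q-values (right). On the left Eya2 is at 2.77 to 3.85 in nasal and 0 to 1.52 in jaw libraries, and on the right these values overlap.

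Most lists of markers of other tissues moved with the same contrast, but those of bone and of the distal jaw did not. Distal jaw genes had 3.23 to 5.01 peaks per 10000 in the nasal and 1.52 to 11.9 in the jaw libraries. Numbers of genes with a peak can follow the number of peaks in a library, and their share over all genes is not given here. Olfactory and placode neuron genes had 9.64 to 11.53 peaks per 10000 in the nasal and 1.45 to 7.61 in the jaw libraries, with peaks at 8 and 5 of 9 genes and none at Neurod1 in any library. The list of cartilage genes had 11.6 to 13.2 against 2.79 to 7.61 (6 and 4 of 6 genes with a peak), and that of surface epithelium 5.37 to 9.25 against 1.45 to 2.79 (7 and 2 of 7 genes). Skeletal muscle genes had 2.70 to 3.904 against 0 to 1.19, at 4 and 1 of 8 genes, with Myod1 and Myf6 at 0 in all libraries. Myf5 and Acta1 also had no peak in the nasal libraries, and only 2 of the 8 genes had enough peaks for the test. Pax7 is in this list and in the frontonasal one, so the values of these lists are not separate. Frontonasal genes had 11.7 to 12.9 against 2.38 to 9.13, while bone genes had 11.2 to 12.7 against 10.65 to 13.1. Of 5 forebrain and eye genes only Otx2 had any peak, at 0.385 to 1.95 in the nasal and 0 in the jaw libraries. The part of these tissues in the values of Eya2 was not tested, and in bulk tissue fewer cells of a kind and less acetylation per cell cannot be told apart.

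Change with stage was tested by the slope of each value over embryonic day in all 10 libraries, against all 4200 assignments of stage. None of the 5 genes had an adjusted p of 0.05 or less, and neither did any of the 11009 genes tested (0%). None of the 5 had values of e11.5 and e15.5 that did not overlap. For peak number e15.5 lay wholly above e11.5 at 7.25% of genes and wholly below at 2.15%, and for acetylated length at 6% and 4.49%. At an unadjusted p of 0.05 or less, 1 of the 5 was found in peak number, against 6.89% of all genes, and 2 of the 5 in acetylated length, against 10.2%. Six2 had a slope of -0.344 peaks per 10000 per day (exact permutation p = 0.0476, adjusted p = 0.711). Its values were 1.19, 1.52, 2.44 and 2.31 in the mandibular process, maxillary process, medial and lateral plate of e11.5, then 0, 1.86 and 1.16 in the mandibular process, maxillary process and nose of e13.5, and 1.51, 0 and 0 at e15.5. The e15.5 library labelled mandibular process lay within the range of e11.5, and without either of the e15.5 libraries that lack a Six2 peak the slope was -0.295 (exact permutation p = 0.112). Counting distal peaks alone, which leaves out the domain over the gene, the slope was -0.787 per 10000 distal peaks (exact permutation p = 0.00619, adjusted p = 0.515). The share of all genes at such a p is not given here. The mandibular and maxillary process of e11.5 entered this value with 1 distal peak each from short lists, against 3 in each plate. With all peaks, the slope was -0.250 at a q-value of 0.01 or less (exact permutation p = 0.240). Not scaled to the library, it was -0.507 (exact permutation p = 0.216).

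The acetylated length of Six4 had a slope of -20.3 bases per Mb per day (exact permutation p = 0.0317, adjusted p = 0.441). It was 164 in the mandibular process, 175 in the maxillary process, 103 in the medial and 83.5 in the lateral plate of e11.5. It was 139, 113 and 61.1 in the mandibular process, maxillary process and nose of e13.5, and 83.9, 64.0 and 0 in the e15.5 libraries labelled in that order. The nasal libraries of e11.5 were thus no higher than the jaw libraries of e13.5. With 1 peak per library this value follows the bases under all peaks. The slope in plain bp was -205 (exact permutation p = 0.350), and the e15.5 peaks of 3444 and 2230 bp lay within the range of e11.5. Without the e15.5 library labelled nose, which had no Six4 peak, the slope was -14.3 (exact permutation p = 0.117). That of Eya1 was -37.8 (exact permutation p = 0.0407, adjusted p = 0.463), with 379 to 507 at e11.5, 270, 441 and 365 at e13.5 and 245, 205 and 414 at e15.5, where the library labelled nose lay within the range of e11.5. The Eya1 slope moved in both directions with the setting. It was -13.3 (exact permutation p = 0.590) with equal numbers of peaks from each library, -87.8 (exact permutation p = 0.000714, adjusted p = 0.311) with a q-value of 0.01 or less, and -51.9 (exact permutation p = 0.00952, adjusted p = 0.340) without the e15.5 library labelled nose. In the last 2 settings the values of e11.5 and e15.5 did not overlap. The share of all genes without overlap in these settings is not given here, so this cannot be called unusual. Both settings also take away the e15.5 value that lay within the range of e11.5, that of the library labelled nose. The last leaves this library out. At the stricter q its only Eya1 peak, with a −log10 q of 1.92, is lost and its value becomes 0. Acetylated length had p-values of 0.427 for Six2, 0.898 for Eya2 and 0.943 for Eya4, and peak number had p-values of 0.185 for Six4, 0.301 for Eya1, 0.630 for Eya2 and 0.611 for Eya4. The spread between tissues was wide within a stage: Eya2 had 196 ± 207 (SD, n = 4) at e11.5, 222 ± 355 (SD, n = 3) at e13.5 and 216 ± 264 (SD, n = 3) at e15.5.

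**Figure D5:**
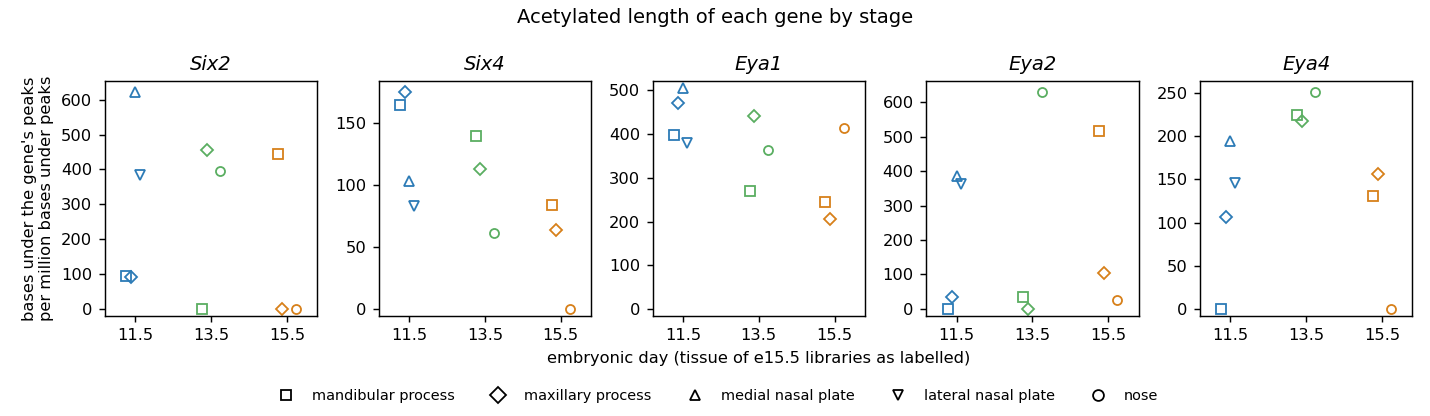
Bases under each gene's peaks per Mb under all peaks of the library, by embryonic day, with a symbol for each tissue (as labelled at e15.5). Six4 lies at 83.5 to 175 at e11.5 and 0 to 83.9 at e15.5, and Six2 and Eya2 span from 90.9 to 622.5 and from 0 to 385 at e11.5.

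Taken by region, the 38 regions of the 5 genes were mostly found in nasal tissue. A peak in at least 1 nasal library and in no jaw library of e11.5 and e13.5 was found for 27 of them, or 71.1%, against 50.2% of all regions. The 27 were 2 of 5 for Six2, 0 of 1 for Six4, 7 of 8 for Eya1, 10 of 15 for Eya2 and 8 of 9 for Eya4. All 3 nasal libraries and no jaw library had 5 of the 38, against 6.01% of all, and 1 region, that of Six2 in the e11.5 maxillary process, was found in jaw libraries alone, against 4.09%. Regions of 1 gene share libraries and are not independent. With a q-value of 0.01 or less 13 of 21 regions (61.9%) were of this kind, against 51.9% of all regions. With equal numbers of peaks from each library 2 of 9 (22.2%) were, against 8.33% of all, and 3 of 9 (33.3%) were found in jaw libraries alone, against 25.7%. Of the 27 regions, 7 were called at e15.5 in the library labelled mandibular process, 3 in that labelled maxillary process and 0 in that labelled nose, or 25.9%, 11.1% and 0%, against 24.4%, 15.9% and 2.69% of the 21266 such regions of the genome.

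By stage, 10 of the 38 regions were called at e11.5 only (22.3% of all regions), 4 at e13.5 only (11.7%) and 3 at e15.5 only (15.49%), and 10 were called at all 3 stages (31.8%). The 3 found at e15.5 only were all of Eya2. A single library held 14 of the 38, against 44.5% of all. By annotation, 13 regions were intergenic, 17 lay in introns, 3 covered an exon with introns and 5 lay over a start site. In number, which follows the size of the list, the e13.5 nose held 25 of the regions, the medial plate 19, the lateral plate 18, the e15.5 library labelled mandibular process 15 and the other 6 libraries 2 to 8. Per 10000 peaks of the library the 5 genes together had 9.76 peaks in the medial plate, 9.64 in the e13.5 nose, 8.76 in the lateral plate and 8.07 in the e15.5 library labelled mandibular process. The maxillary process of e11.5, with 7.61, and the mandibular process of e13.5, with 7.26, were close behind, and the other 4 had 2.59 to 4.83.

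The other genes of the network that these families form with Pax and Dach factors were read from a list of 28, of which 15 had enough peaks for the nasal and jaw comparison and 16 for that of stage. No gene of the list passed an adjusted p of 0.05 in either comparison. In peaks per 10000, every nasal library was above every jaw library for 3 of 15, Pax9, Sall1 and Six3, against 6.18% of all genes, and every jaw library above every nasal one for 1 of 15, Six5, against 25.8%. Their exact permutation p was 0.0286 and their adjusted p 0.131. Pax9, a paired-box factor of palate and teeth, had 4, 3 and 2 peaks in the medial plate, lateral plate and e13.5 nose and 0 in the 4 jaw libraries. Six3, known from the forebrain and eye, had 2, 2 and 4 against 0, and Sall1, a zinc finger factor of kidney and limb, had 4, 1 and 2 against 0. Pax9, Six3 and Sall1 thus reached the minimum of 5 peaks through the nasal libraries alone. No jaw library could then stand above a nasal one, so their order and p-values are no support for a difference. Six5 had 1 peak in each of the 10 libraries, so like Six4 its share follows the size of the list. In acetylated length, Dach1, Pax9, Sall1, Sall4 and Six3 had all nasal above all jaw libraries, 5 of 15 against 9.36% of all genes. The same limit holds there for Pax9, Sall1 and Six3. Dach1 and Sall4 each had 1 peak in 1 jaw library and also reached the minimum of 5 peaks through the nasal libraries. Their order in length is therefore no support for a difference either. The median difference of the 15 genes, with Pax9, Sall1 and Six3 among them, was 0.803 peaks per 10000, against -0.249 over all genes tested. No gene of the list had values of e11.5 and e15.5 that did not overlap, and its median slopes were -0.0922 peaks per 10000 and -10.8 bases per Mb per day, against -0.00342 and 0.859 over all genes.

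Genes with the most similar values over the 10 libraries were sought among those with at least 20 peaks and more than 1 Mb away, by Pearson's r of peaks per 10000, as a description without a test. The points share library sizes and tissues. For Six2 they were Kctd1 (r = 0.877), D630045J12Rik (0.875) and Cald1 (0.874). Eya1 was followed most closely by Ptprg (r = 0.849), Gxylt2 (0.839) and Msx1 (0.835), a homeobox gene of facial mesenchyme. Those nearest to Eya2 were Cacna2d3 (r = 0.934), Mtus1 (0.906) and Dab2ip (0.890), and those nearest to Eya4 were Mthfd1l (0.792), Cdc7 (0.791) and Actbl2 (0.758). For Six4 they were Zfp52 (r = 0.955), Dact3 (0.948) and Tcaf1 (0.937). Among the 5 genes themselves Eya2 and Eya4 had the highest r, 0.593, and Six4 and Eya2 the lowest, -0.483.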

How the data were processed

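H3K27ac ChIP-seq was done by the authors on facial tissue of wild-type mouse embryos, with 10 ChIP libraries that have peak lists and 10 inputs not used here. Per the submitters' processing notes, alignment used BWA 0.7.7 on mm10, with SAMtools 0.1.19, and MACS2 2.2.4 gave broad peaks for each library; no deposited −log10 q was under 1.3. The deposited lists give for each peak a score, a fold enrichment (a ratio to background), and −log10 of the p-value and of the q-value, all set by the authors within a list. They served here to order peaks inside one list. Depth is unknown, so peak numbers can follow sequencing depth and enrichment.

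Of 144896 peaks, the 144852 on placed chromosomes were analysed, and all ended within the GRCm38 chromosomes. They were assigned to 21938 protein-coding genes of GENCODE vM21 by gene body or nearest start up to 100 kb away, without regard to the gene a peak may act on. The tests were exact two-sided permutation tests over libraries, on peaks per 10000 and on bases per Mb, over all genes with at least 5 peaks, with Benjamini-Hochberg adjustment. The members and all lists were chosen with earlier results of these data known. Named beyond the 5 genes were list genes whose groups did not overlap, 3 similar genes per member, and the region found in all libraries with up to 3 widest stage-specific or nasal regions per gene. The tests were checked on simulated data. Alternatives were a −log10 q of at least 2, 6571 peaks per library, assignment within 20 kb or by gene body, distal peaks only, no minimum of peaks, no scaling, the means of e15.5 and e11.5 in place of the slope, all 10 libraries in the regional comparison, merging within 500 bp, an overlap of 25%, and leaving out each library. Acetylated length in the regional comparison and the tests within stage or tissue were added after seeing the data. Sequences came from GRCm38 and the RefSeq promoter table. Software was scipy 1.17.1, pandas 2.3.3, matplotlib 3.10.9 and numpy 2.4.6 under Python 3.11.15.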

Additional observations from a re-analysis of the deposited data

How the results depend on the processing

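No member passed the adjusted threshold in peak number or acetylated length, by stage or by nasal and jaw tissue, under any alternative run, leaving out each library included (0 to 0). With 1 library fewer the exact permutation test of nasal against jaw cannot go below p = 0.0667 or 0.1. The number of regions was 38, and 21 at a −log10 q of at least 2 and 9 at equal yield; it stayed within 1.5 times under the 2 other alternatives. No paired analysis was possible because the labels give no replicate numbers. Tests within stage or within tissue (e15.5 as labelled) were added after seeing the data. Within stage, where p cannot go below 0.0556 in an exact permutation test, Eya2 differed by 2.50 peaks per 10000 (p = 0.0556). Here too Eya2 reached the minimum of peaks through the nasal libraries. The tests within tissue tie the e15.5 libraries to earlier ones by doubted labels, and the smallest p of any gene over their 72 assignments was 0.0278 (exact permutation). Within tissue, the slope in acetylated length was 6.76 for Six2 and 6.07 for Eya4, both reversed. For Six4 it was -24.7 (exact permutation p = 0.0278, adjusted p = 0.772), and for Six2 in peak number it was -0.197 (exact permutation p = 0.389). Leaving out 1 library cannot undo an order of all nasal above all jaw libraries, so that of Eya2 had to hold. Its difference then ranged from 2.10 to 2.70 peaks per 10000. Eya2 did not have this order when all 10 libraries entered by their doubted labels (1.24, exact permutation p = 0.205). There the e15.5 libraries with peak names of nose, md and mx had 4.04, 1.81 and 1.29. Nor did Eya2 have it for the number of distal peaks alone (exact permutation p = 0.114).

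Other values changed sign, and the cause was not tested. For the stage slope in peak number, Eya4 had 0.0859 at the stricter q and -0.182 to 0.0300 without a library (0.0300 without that labelled nose at e15.5), Eya1 had 0.0110 at equal yield, and Eya2 had -0.0575 to 0.244 without a library (-0.00625 without the mandibular library of e11.5 and -0.0575 without that labelled so at e15.5). For the slope in acetylated length, Eya4 had 2.92 at the stricter q, 2.19 within 20 kb, 1.90 by gene body, 6.82 for distal peaks and 162 bp unscaled, and -13.3 to 14.2 without a library, and Eya2 had -27.2 to 26.97 without a library. In the regional comparison of peak number, Eya1 had -0.805 at the stricter q, -0.380 at equal yield and -0.139 within 20 kb or by gene body, and Six4 had 0.380 at equal yield. In acetylated length Eya1 had -88.1 at the stricter q, -19.3 within 20 kb or by gene body and -23.4 to 47.6 without a library, and Six4 had 66.6 at equal yield and 978 bp unscaled.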
